A study of Mus musculus with 13 samples.

Results

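Transcripts of 8 connexin genes were measured in newborn mice, in the cerebral meninges of pups that lacked PDGF-C and carried only a single functional copy of the gene of its receptor, PDGFRα. The genes, Gja1, Gja4, Gja5, Gjb1, Gjb2, Gjb6, Gjc1 and Gjd2, were taken by name as the connexins of meninges, vessels and brain. They make up 8 of the 16 connexin genes that a probe set of the array names alone, and 8 of 19938 genes tested. Each was read from 1 probe set. Meninges came from a single litter of C57BL6 mice, with 1 array (Affymetrix Mouse Gene 1.0 ST) per mouse: 4 mutants with the genotype Pdgfc-/-; Pdgfra GFP/+ and 9 controls. The GFP allele is a null allele of Pdgfra that marks the cells expressing it with nuclear GFP. The controls were all the other pups of the litter, in which Pdgfc+/+, Pdgfc+/- and Pdgfc-/- without the GFP allele were pooled with Pdgfc+/+ and Pdgfc+/- that carried it, and the labels do not say which control had which genotype. So some controls may have shared the loss of Pdgfc or the GFP allele with the mutants, but not both. The number of arrays limits the precision, and every p-value measures the spread between the pups of this litter.

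Connexins are membrane proteins that assemble into hemichannels. Hemichannels of neighbouring cells dock into gap junctions, through which ions and small metabolites pass from cell to cell. Fibroblasts of the leptomeninges are joined by gap junctions built from Cx43 (Gja1), Cx26 (Gjb2) and Cx30 (Gjb6). Cx43 and Cx30 also couple astrocytes. Cx37 (Gja4) and Cx40 (Gja5) are the connexins of arterial endothelium, Cx45 (Gjc1) is found in smooth muscle cells and other mural cells, Cx32 (Gjb1) in oligodendrocytes and Schwann cells, and Cx36 (Gjd2) forms electrical synapses between neurons.

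The labels were checked first. Pdgfc was at an intensity of 22.8, 27.9, 22.8 and 29.3 in mutants 1 to 4, at 5.88 in control 2 and at 103 to 275 in the other 8 controls. Pdgfra was at 788 to 1561 in mutants and 1039 to 2255 in controls. The groups differed in sex as well as genotype, and their parts cannot be told apart in full. Xist, which silences an X chromosome in females, was at 2.24 to 4.77 in the 4 mutants, and the Y-linked Eif2s3y at 359 to 556. This male pattern was shared by 3 controls and 6 had the female pattern. The array median was 56.0 to 89.7 in mutants and 44.1 to 89.0 in controls. All 13 neuronal marker genes were higher in mutants, as described with the other markers.

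Of the 8 connexins 4 fell in mutant meninges and none rose. The fibroblast connexins Gjb6, Gjb2 and Gja1 fell, and so did Gja5, of arterial endothelium. The falls ran from 2.31-fold (Gjb6) and 1.88-fold (Gja5) to 1.5-fold (Gjb2) and 1.32-fold (Gja1), while Gja4, Gjc1, Gjb1 and Gjd2 did not pass the test. A gene fell or rose at an adjusted p under 0.05 with limma, fitted to log2(intensity + 16) of all 19938 genes, in which 6.31% of genes fell and 8.58% rose. The median log2 fold change of the 8 connexins was -0.29 and that of all tested genes 0.0043. At an unadjusted p under 0.05 the same 4 fell and Gjd2 rose (1 gene), and 4701 of all 19938 genes passed. With the methods' t-test, after adjustment, 4 fell and 0 rose, against 1223 and 1677 of all genes. With unequal variances only Gja5 fell (1 gene) and 0 rose, against 400 and 1139 of all genes. By the threshold of the methods, a fold above 2 and an unadjusted p under 0.05, 1 connexin, Gjb6, was lower. Of all genes 159 were lower and 653 higher by that threshold. These counts rest on folds taken after 16 was added, which lowers the fold of dim genes. With 1 added in place of 16, the log2 fold change of Gja5 was -1.02, a fold above 2. The mean ± SD values below are intensities on a linear scale, and a level of one gene is not compared with that of another, since probe sets differ in brightness.

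**Figure D1:**
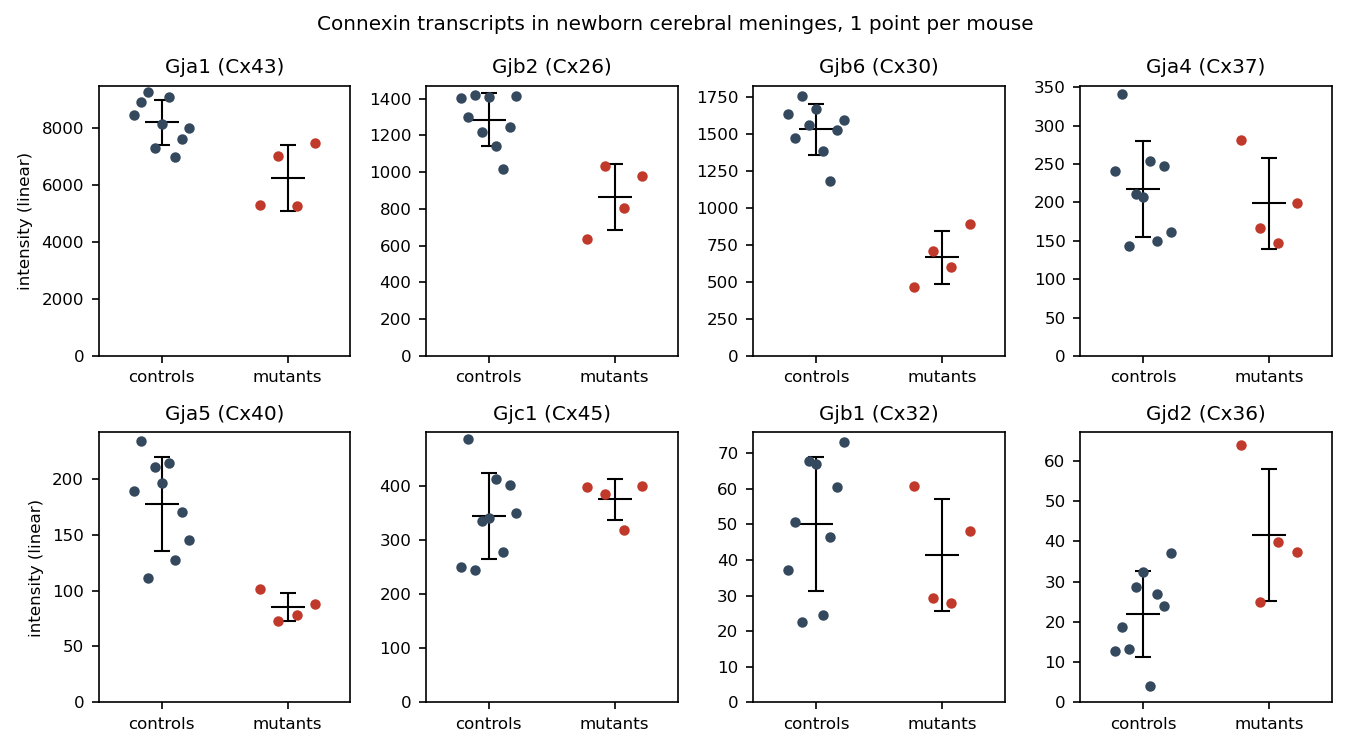
Intensity on a linear scale (y axis, from 0) of the 8 connexin transcripts in each of 9 controls and 4 mutants, with the mean and SD of each group as bars. For Gjb6 and Gja5 the mutants lie wholly below the controls, for Gja1 and Gjb2 the groups meet at their edges, for Gjd2 3 of 4 mutants lie above the controls, and for Gja4, Gjb1 and Gjc1 the mutants lie within the range of the controls.

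Gjb6 and Gjb2 lie next to each other on mouse chromosome 14, with 0 annotated genes between them in RefSeq, while Gja1 and Gja5 lie on chromosomes 10 and 3. The windows around the transcription starts of these 4 genes, those that fell, are printed since they show how the starts of neighbouring and of unlinked connexin genes differ in sequence. Each holds 250 bases before the start and 50 after it, is read 5′ to 3′ on the strand of the gene, and comes from RefSeq (GRCm38.p6). The windows are chr14:57104653-57104952 (minus strand) for Gjb2, chr14:57133562-57133861 (minus strand) for Gjb6, chr3:97032152-97032451 (plus strand) for Gja5 and chr10:56377050-56377349 (plus strand) for Gja1. Capitals mark matches, on either strand, to any of the GC box GGGCGG, the TATA box TATAAA, the AP-1 motif TGANTCA and the E-box CACGTG.
Gjb2: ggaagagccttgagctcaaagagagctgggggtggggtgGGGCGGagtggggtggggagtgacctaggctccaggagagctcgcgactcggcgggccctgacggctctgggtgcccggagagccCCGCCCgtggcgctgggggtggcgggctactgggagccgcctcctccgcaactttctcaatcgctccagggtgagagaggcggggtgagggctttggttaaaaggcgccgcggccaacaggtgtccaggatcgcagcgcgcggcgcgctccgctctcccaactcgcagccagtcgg
Gjb6: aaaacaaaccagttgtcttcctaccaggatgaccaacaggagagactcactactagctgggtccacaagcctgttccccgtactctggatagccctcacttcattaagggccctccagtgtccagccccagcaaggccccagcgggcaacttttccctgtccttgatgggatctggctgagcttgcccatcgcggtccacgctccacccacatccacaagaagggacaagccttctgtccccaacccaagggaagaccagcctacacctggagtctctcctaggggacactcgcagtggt
Gja5: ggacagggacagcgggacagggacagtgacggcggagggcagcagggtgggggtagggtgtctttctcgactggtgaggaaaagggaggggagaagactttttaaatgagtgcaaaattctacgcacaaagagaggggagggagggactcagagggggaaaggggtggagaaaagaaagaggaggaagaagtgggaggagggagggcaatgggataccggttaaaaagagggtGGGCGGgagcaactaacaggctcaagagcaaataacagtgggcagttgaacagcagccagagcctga
Gja1: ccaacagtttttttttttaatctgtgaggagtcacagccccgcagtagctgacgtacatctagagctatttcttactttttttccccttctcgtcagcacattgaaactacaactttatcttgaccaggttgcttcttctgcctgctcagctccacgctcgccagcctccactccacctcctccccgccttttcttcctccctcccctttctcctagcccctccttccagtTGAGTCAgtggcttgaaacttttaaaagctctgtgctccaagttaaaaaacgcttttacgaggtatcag
The neighbours Gjb2 and Gjb6 differed here. The Gjb2 window was 70.0% G and C and held 2 GC boxes, 211 and 126 bases before the start, while that of Gjb6 was 57.3% G and C and held 0 matches to the 4 motifs. The Gja5 window held 1 GC box, 17 bases before the start, and the Gja1 window 1 AP-1 motif, 19 bases before the start. Over the 32817 windows searched, 35.6% held a GC box, 13.6% a TATA box, 7.81% an AP-1 motif and 7.15% the E-box. A match is a string of letters and not evidence of binding.

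Gjb6, which encodes Cx30, had the largest change of the 8. Its intensity was 465, 709, 603 and 889 in mutants 1 to 4. In the controls it ran from 1182 over a median of 1560 to 1758. All 4 mutants lay below all 9 controls, which held for 3.04% of all tested genes with mutants lower and for 6.4% with mutants higher. The means were 666 ± 179 (SD, n = 4) and 1529 ± 170 (SD, n = 9). By limma the change was -1.21 on the log2 scale (standard error 0.15, adjusted p = 6.24e-06). The fall kept its call in 30 of 31 other settings, at log2 fold changes of -1.36 to -1.003, and lost it with unequal variances (adjusted p = 0.0644).

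Gjb2, which encodes Cx26, had an intensity of 635, 1035, 805 and 978 in mutants 1 to 4. The controls ran from 1014 over a median of 1298 to 1421. The groups met, since mutant 2 at 1035 lay above control 7 at 1014, and the other 3 mutants lay below every control. The log2 fold change was -0.58 (standard error 0.14, adjusted p = 0.00665 with limma), from 863 ± 181 (SD, n = 4) against 1285 ± 144 (SD, n = 9). It kept its call in 29 of 31 other settings. Of the 2 that ended it, 1 was unequal variances (adjusted p = 0.180), and it came close to losing it without mutant 1 (0.0498).

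Gja1, which encodes Cx43, had an intensity of 5277, 6997, 5240 and 7448 in mutants 1 to 4, and ran from 6966 over a median of 8118 to 9248 in the controls. Mutants 2 and 4 lay within the range of the controls and mutants 1 and 3 below it. The means were 6241 ± 1149 (SD, n = 4) and 8179 ± 801 (SD, n = 9). The log2 fold change of -0.40 (standard error 0.13) was just past the threshold (adjusted p = 0.0452 with limma). It stayed below 0 in all 31 other settings, from -0.50 to -0.20, but was called in 13 of them. Among the 18 settings that ended the call were the mice with the male pattern alone (log2 fold change -0.38, adjusted p = 0.341) and a covariate for the level of Xist (-0.37 and 0.290), both close to the -0.40 of all mice. With each array centred on fibroblast genes it was -0.20 (0.128). The call also ended when the 4 arrays with the lowest median were left out (-0.26 and 0.308), without mutant 1 (-0.33 and 0.190) or mutant 3 (-0.32 and 0.166), and without any of controls 1, 2, 3, 5, 6, 8 and 9 (-0.41 to -0.38, adjusted p 0.0614 to 0.0714).

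Gjb6 had a larger fold change than the other connexins of fibroblasts. Differences of log2 values between 2 genes on the same array, which do not change when an array is centred, describe this mouse by mouse for 3 pairs. The pairs were chosen after their values were seen, so no p-value is given and these differences are a description. Gjb6 minus Gjb2 was -0.38 ± 0.17 (SD, n = 4) in mutants, against 0.25 ± 0.06 (SD, n = 9) in controls, and lay between -0.54 and -0.13 in the mutants and 0.17 and 0.35 in the controls. The group means were -0.63 apart. Gjb6 minus Gja1 lay between -3.46 and -3.04 in mutants and -2.70 and -2.21 in controls, with means -0.81 apart. The third pair is Gja5 and Gja4, described with the vessel genes.

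**Figure D2:**
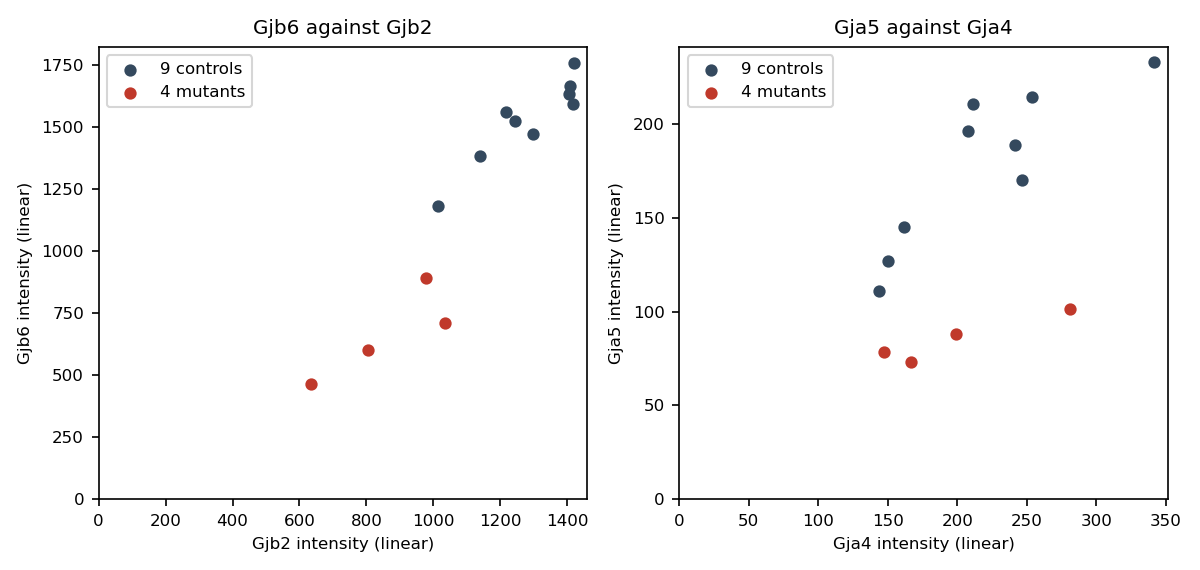
Intensity of Gjb6 against Gjb2 (left) and of Gja5 against Gja4 (right) in each mouse, on linear axes from 0. In the left panel 3 mutants lie below every control on both axes, and mutant 2 (Gjb2 1035, Gjb6 709) lies below control 7 (1014 and 1182) in Gjb6 alone. In the right panel the 4 mutants lie at the Gja4 intensities of the controls but below them in Gja5.

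Of the connexins of vessels, 1 of 3 fell. Gja5, which encodes Cx40, had an intensity of 101, 73.1, 78.4 and 87.9 in mutants 1 to 4 and ran from 111 over a median of 189 to 233 in the controls. All 4 mutants lay below all 9 controls. The means were 85.2 ± 12.3 (SD, n = 4) and 178 ± 42.0 (SD, n = 9), and the log2 fold change was -0.91 (standard error 0.17, adjusted p = 6.24e-04 with limma). Of the 8 connexins, Gja5 was the only one called in all 31 other settings, at log2 fold changes of -1.02 to -0.70 and adjusted p of at most 0.0152.

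Gja4, which encodes Cx37, had an intensity of 281, 167, 148 and 199 in mutants 1 to 4, and ran from 144 over a median of 211 to 342 in the controls. The mutants lay within the range of the controls. Its log2 fold change was -0.11 (95% confidence interval -0.53 to 0.31, adjusted p = 0.916 with limma). Gja5 minus Gja4 was -1.06 ± 0.22 (SD, n = 4) in mutants, against -0.26 ± 0.18 (SD, n = 9) in controls, with means -0.80 apart, again as a description without a p-value. The mutants lay between -1.34 and -0.79 and the controls between -0.52 and -0.0040, without overlap.

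Gjc1, which encodes Cx45, had an intensity of 398, 385, 319 and 400 in mutants 1 to 4 and ran from 246 over a median of 342 to 488 in the controls, so that the mutants lay inside the range of the controls. The log2 fold change was 0.14 (95% confidence interval -0.20 to 0.49, adjusted p = 0.802 with limma), and no setting called it.

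The connexins of oligodendrocytes and neurons had low intensities. Gjb1, which encodes Cx32, had an intensity of 60.6, 29.3, 28.0 and 48.1 in mutants 1 to 4, and ran from 22.7 over a median of 50.6 to 73.2 in the controls. The groups overlapped. Its log2 fold change was -0.18 (95% confidence interval -0.65 to 0.29, adjusted p = 0.826 with limma), and it was called only with array quality weights (-0.52, adjusted p = 0.0398). Gjb1 lies on the X chromosome. In the 3 controls with the male pattern of the sex-linked genes it was at 37.3 to 67.0, inside the range of the other 6 controls, 22.7 to 73.2.

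Gjd2, which encodes Cx36, had an intensity of 64.0, 24.9, 40.0 and 37.3 in mutants 1 to 4, and ran from 3.97 over a median of 24 to 37.2 in the controls. Mutant 2 lay near the median of the controls, and the other 3 mutants lay above all of them. The log2 fold change of 0.61 (95% confidence interval 0.15 to 1.08) missed the threshold (adjusted p = 0.0756 with limma), and since control intensities lie near the 16 added to each value, it understates the ratio of intensities. Gjd2 was called as a rise after quantile normalization (adjusted p = 0.00317), with each array centred on its median (0.0267) or on fibroblast genes (0.0335), without mutant 2 (0.0476) and without control 9 (0.0408). Array brightness moved with both genes. After the group means were removed, the Pearson r with the array median over 13 arrays was 0.92 for Gjb1 and 0.72 for Gjd2. It was 0.49 for Gjc1, 0.30 for Gja5, 0.26 for Gja4, 0.16 for Gjb6, 0.12 for Gjb2 and -0.08 for Gja1. The part of array brightness in the values of Gjb1 and Gjd2 was not tested further.

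**Figure D3:**
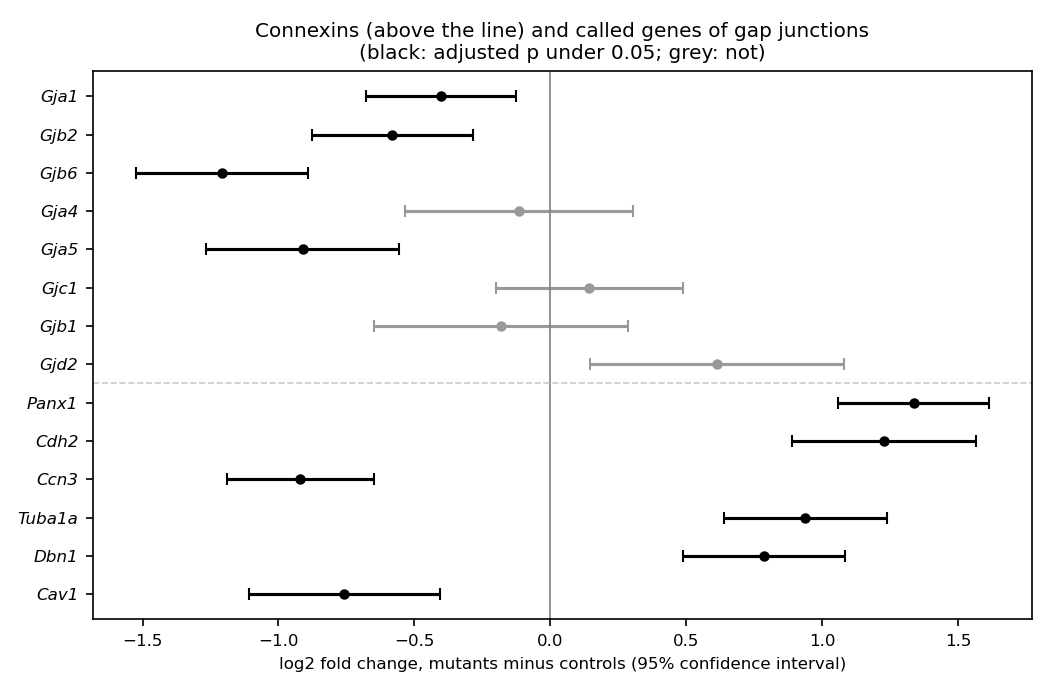
Log2 fold change of mutants minus controls (x axis) with its 95% confidence interval for the 8 connexins (above the dashed line) and for the 6 called genes of the other gap junction lists (below it), black where the adjusted p was under 0.05 and grey where it was not. Gjb6 at -1.21 and Gja5 at -0.91 lie farthest below 0 among the connexins, and Panx1 at 1.34 farthest above 0.

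The exact permutation p, two-sided over 715 splits of the mice and unadjusted for the 8 genes tested, was 0.0014, the smallest they can give, for Gjb6 and Gja5, 0.0028 for Gjb2, 0.0070 for Gja1 and 0.0364 for Gjd2. It was 0.411 for Gjc1, 0.491 for Gjb1 and 0.617 for Gja4. With the 7 mice of the male pattern alone, Gjb6 (log2 fold change -1.29, adjusted p = 4.99e-05), Gja5 (-0.998, 5.08e-04) and Gjb2 (-0.66, 0.0388) fell by limma. In the exact test, run on these 8 genes alone, 5 of 8 were under 0.05 over all mice. No share over all genes was computed for this test. By limma 4701 of 19938 genes were under 0.05 unadjusted. With the male pattern alone, or without the 4 arrays of lowest median intensity, 3 of 8 were under 0.05 in the exact test. Fewer mice give fewer splits and a larger smallest p, so the count of 3 cannot be set against that of 5.

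Among the rest of the gap junction family, 11 further connexins and pannexins were measured by a probe set of their own, of 15 listed, and 1 rose and 0 fell (0 also at an unadjusted p under 0.05, with the methods' t-test and with unequal variances). Their median log2 fold change was 0.0040, and -0.09 or 0.21 with arrays centred on their median or on fibroblast genes. The gene that rose was Panx1, which encodes a channel protein of the pannexins, a family unrelated in sequence to the connexins that forms channels in single membranes. It had an intensity of 306, 351, 286 and 343 in mutants 1 to 4 and 87.7 to 153 in the controls, all below the mutants (2.52-fold higher, adjusted p = 2.89e-07 with limma).

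Of 15 measured genes of 17 listed that bind, anchor or regulate connexins, 3 rose and 2 fell. Their median change was -0.02 on the log2 scale, or -0.12 and 0.18 with arrays centred on their median and on fibroblast genes. The gene that fell most was Ccn3, which encodes a matricellular protein that binds Cx43. It had an intensity of 1597, 2124, 1450 and 2016 in mutants 1 to 4, below the 2865 to 3863 of the controls (1.89-fold lower, adjusted p = 2.88e-05). Cav1, the caveolin gene of endothelium and fibroblasts, was 1.69-fold lower (adjusted p = 0.00307), and its groups overlapped. Cdh2, the gene of N-cadherin, was 2.34-fold higher (adjusted p = 1.19e-05), Tuba1a, a tubulin gene of neurons, 1.92-fold (7.61e-05), and Dbn1, which encodes the actin-binding drebrin, 1.72-fold (4.55e-04), each by limma. For these 3 genes all mutants lay above all controls.

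Markers of the cells that hold connexins moved too. In bulk tissue fewer cells of a type and less RNA per cell cannot be told apart. Of 18 meningeal fibroblast genes 2 rose and 3 fell (2 and 7 at an unadjusted p under 0.05, 0 and 1 with unequal variances). Their median was -0.17 on the log2 scale. With arrays centred on these same genes it was 0.04, a value set largely by the centring itself. Their summed intensity was 31644 to 46818 in mutants and 35496 to 48095 in controls. Of 10 arachnoid barrier genes 7 fell (6 with the methods' t-test and 2 with unequal variances) and 0 rose (0 also by these tests and at an unadjusted p under 0.05), among them Ptgds, the prostaglandin D synthase gene (2.76-fold lower), with summed intensities of 7403 to 12047 in mutants and 14967 to 17585 in controls. Gjb6 was lower in mutants relative to both lists. Minus the mean log2 level of the fibroblast list it was -1.46 to -1.09 in mutants and -0.47 to 0.08 in controls, and minus that of the arachnoid list -0.18 to 0.15 and 0.28 to 0.91, without overlap. Gjb2 minus the arachnoid list was at 0.26 to 0.61 in mutants, against 0.06 to 0.60 in controls, and minus the fibroblast list at -1.02 to -0.67 against -0.65 to -0.22. Gja1 minus the fibroblast list lay at 1.95 to 2.07 in mutants and 2.04 to 2.47 in controls, and the groups met. The arachnoid list gave the opposite sign for Gja1, 3.20 to 3.35 against 2.76 to 3.29. The part of these markers in the falls was not tested.

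Of 12 genes of astrocytes and radial glia 3 fell, Atp1b2, Slc4a4 and Slc1a3 (1.86-fold, 1.86-fold and 1.51-fold lower, with 1 of them called with unequal variances), and 0 rose (2 at an unadjusted p under 0.05, and 0 with the methods' t-test or unequal variances). The list had a median of 0.17 on the log2 scale and a summed intensity of 9400 to 13550 in mutants and 8563 to 11785 in controls. Gjb6 minus this list was 0.37 to 0.85 in mutants and 1.58 to 1.99 in controls. Gja1 minus this list overlapped, at 3.71 to 4.12 and 3.79 to 4.54.

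Of 14 endothelial genes 10 fell (9 with the methods' t-test and 10 with unequal variances) and 0 rose (0 also by these tests and at an unadjusted p under 0.05). Their median was -0.77 on the log2 scale, with summed intensities of 6568 to 8688 in mutants and 9311 to 19299 in controls. Kdr, the VEGF receptor gene, was 1.90-fold lower. Gja5 minus the endothelial list was -2.20 to -1.89 in mutants, within the -2.06 to -1.46 of the controls or below it. Gja4 minus the same list was higher in all 4 mutants (-1.16 to -0.55) than in all controls (-1.79 to -1.24). Of 12 genes of arterial endothelium Nrp1 fell and Hey1 rose (1 each), with a median of -0.20 that was 0.01 centred on fibroblast genes, and with summed intensities of 3783 to 4889 and 3788 to 5402. Gja5 lay at -1.11 to -0.84 relative to it in mutants and at -0.47 to 0.08 in controls. Gja4 relative to the same arterial list overlapped, at -0.09 to 0.50 in mutants and -0.28 to 0.41 in controls. The part of these markers was not tested.

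Of 13 mural genes 0 rose and 0 fell with limma (1 and 2 at an unadjusted p under 0.05, and 0 with the methods' t-test or unequal variances), with summed intensities of 3937 to 4679 in mutants and 3627 to 6506 in controls. Gjc1 minus this list was 0.80 to 1.05 in mutants and 0.38 to 0.87 in controls, which overlapped. All 13 neuronal genes rose, with a median log2 fold change of 3.32 and summed intensities of 15140 to 18663 against 1694 to 4535. Gjd2 minus the neuronal list was -4.71 to -3.57 in mutants and -2.43 to -1.26 in controls, so that the neuronal genes differed between the groups by more than Gjd2. Of 10 oligodendrocyte genes 1 fell, Cnp, and 0 rose (1 at an unadjusted p under 0.05), with summed intensities of 485 to 864 and 427 to 882, and Gjb1 minus this list was -0.56 to -0.26 in mutants, inside the -0.69 to -0.03 of the controls. None of the markers named in these lists was at 0 in any mouse.

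**Figure D4:**
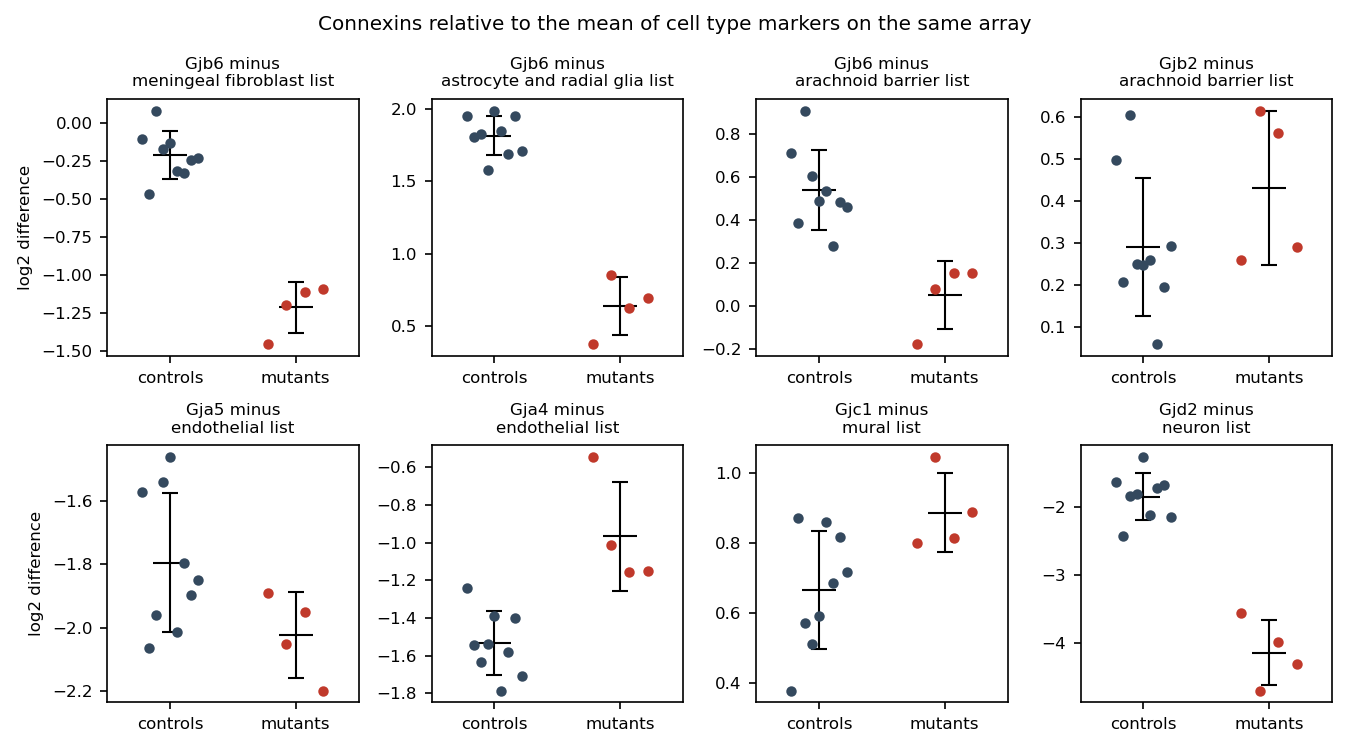
Log2 level of a connexin minus the mean log2 level of a list of cell type markers on the same array (y axis, which does not start at 0), per mouse, with mean and SD of 9 controls and 4 mutants. Gjb6 is lower in mutants relative to the fibroblast, glial and arachnoid lists. Gjb2 and Gja5 overlap with controls relative to the arachnoid and endothelial lists, and Gja4 is higher in mutants relative to the endothelial list. The arterial list, relative to which Gja4 overlapped between the groups, is not drawn.

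Other cell types were checked as well. Of 10 genes of macrophages and microglia 9 fell (9 with the methods' t-test and 1 with unequal variances), and of 8 choroid plexus genes Clic6 rose and Kcnj13 and Kl fell (1 and 2). The choroid plexus genes summed to 697 to 3499 in mutants and 1319 to 1738 in controls. Among them Ttr was at 2841 in mutant 1 and at 55.3 to 168 in every other mouse. The part of this in the connexin values of mutant 1 was not tested. Of 8 genes of skin and cochlear epithelium, where Cx26 and Cx30 are abundant, 1 rose (Dsp, 1.48-fold) and 0 fell (0 also by the other tests), with summed intensities of 343 to 604 in mutants and 259 to 601 in controls. Of 5 genes of dura and skull 1 fell (Alpl, 1.38-fold), and of 3 erythroid genes 0 rose or fell by any test. Of 9 reference genes 2 fell, Gusb and Sdha, so the reference genes were not constant here.

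Within the groups, some connexins varied together. After group means were removed, Pearson r of log2(intensity + 16) over the 13 arrays was 0.91 between Gjb2 and Gjb6, 0.71 between Gja1 and Gjb2 and 0.72 between Gja1 and Gjb6. It was 0.87 between Gja4 and Gja5, and Gjc1 had 0.69 with Gja4 and 0.65 with Gja5. The low-intensity pair Gjb1 and Gjd2 had 0.87, and Gja1 and Gjd2 had -0.64. Between the fibroblast connexins and Gja4 or Gja5 it lay between -0.24 and 0.09. The points share their dissection and their array, so these are descriptions. The genes with the most similar residual pattern, by the same r, were Laptm4a (0.97), Dcn (0.95) and Rpl10 (0.94) for Gja1, Gjb2 (0.91), Tlcd1 (0.90) and Fndc3a (0.89) for Gjb6, and Lysmd2, Fndc3a (both 0.93) and Slc4a10 (0.92) for Gjb2. They were St6galnac2, Egfl7 and Mcam (0.94, 0.94 and 0.93) for Gja4 and Mmrn2, Vwf and Mcam (0.94, 0.94 and 0.91) for Gja5, of which Egfl7, Mmrn2 and Vwf are genes of endothelium. They were Tagln2, Prom1 and Bambi (0.97, 0.96 and 0.94) for Gjc1. For Gjb1 they were Ager, Gip and Gpr139 (each 0.99), and for Gjd2 Sprr2d, Ugt2b36 and Btnl2 (each 0.97), the connexins that followed the array median.

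**Figure D5:**
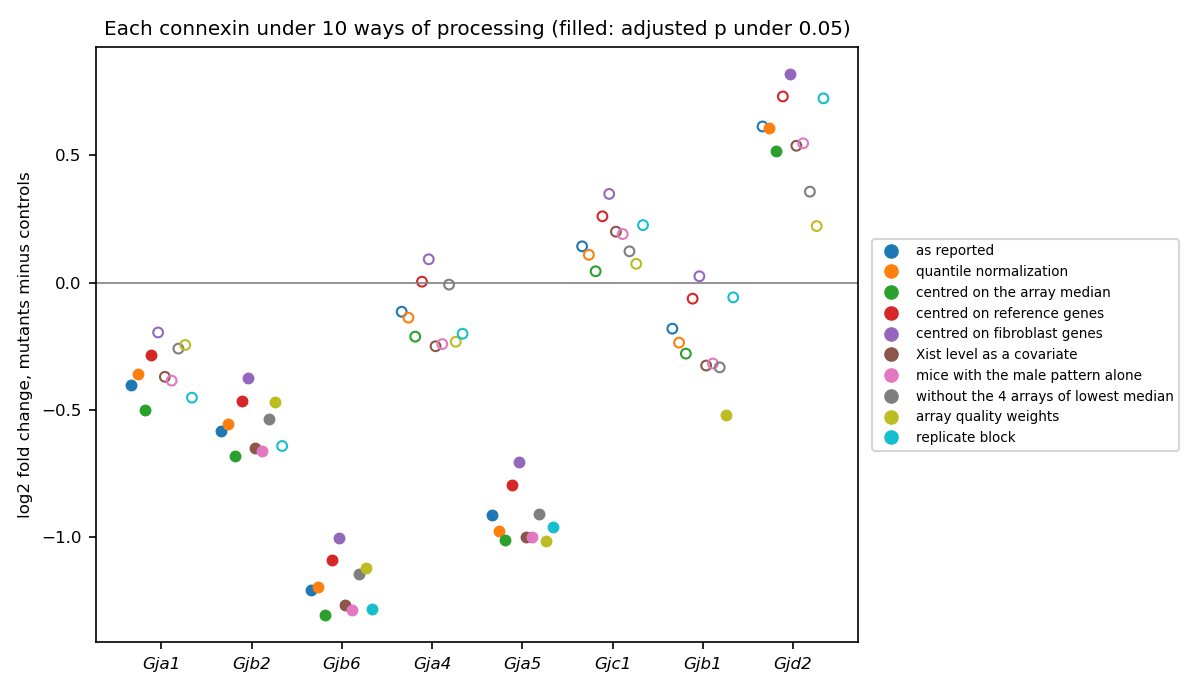
Log2 fold change of each connexin (y axis) as reported and under 9 other ways of processing, filled where the adjusted p was under 0.05 and open where it was not. Gjb6 stays between -1.31 and -1.003 and Gja5 between -1.01 and -0.70, and both are filled throughout. Gja1 is filled in 4 of 10, and Gja4 and Gjb1 reach both sides of 0. The test with unequal variances, in which Gjb6 lost its call (adjusted p = 0.0644), is not drawn.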

How the data were processed

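RNA of cerebral meninges of newborn mice was measured on Affymetrix arrays, 1 per mouse, and the authors summarised raw data with PLIER. The deposited table holds linear intensities of 35557 probe sets. The PLIER version and any scaling between arrays are not given in the sources used here. Values were taken as log2(intensity + 16), which lowers the fold of dim genes. Probe sets with 1 gene symbol in the platform table (21789) gave 19938 genes, each read from its brightest probe set, and 21698 were matched to RefSeq. Mutants and controls were compared with limma 3.58.1 (lmFit and eBayes, R 4.3.3) by a two-sided test, and p-values were adjusted by Benjamini-Hochberg over all genes. Exact permutation tests and figures were made in Python 3.11.15 (matplotlib 3.10.9). The code was tested on simulated data.

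The 8 connexins, the gene lists and the tests were chosen with earlier results of these data known. Text names all connexins, every gene of the gap junction lists that passed, up to 3 genes of each marker list with the smallest adjusted p, and the 3 genes most like each connexin. Of the marker lists only the examples that bear on a connexin are named, besides Ttr for its value in mutant 1. The alternatives were other scalings, constants (1 and 32), filters, probe set rules, tests, covariates and left-out mice. The male pattern means an Eif2s3y intensity above 100. Mice with 1 replicate number in both groups had deviations correlated at -0.34, 0.16, 0.31 and -0.09, so equal numbers were not taken to pair mice. Arrays correlated at 0.90 to 0.99 and none were identical.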

Additional observations from a re-analysis of the deposited data

Results flagged for a closer look

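Of 28 groups of mice looked at (14 genes in mutants and in controls), 1 held a mouse far from the others of its group. Gjc1 in mutant 3 was at an intensity of 319.08, while the other 3 mutants lay at 385 to 400. Chance alone gives such a gap in about 1 of 20 groups. Without mutant 3 the log2 fold change of Gjc1 was 0.22 (adjusted p = 0.595 with limma).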

How the results depend on the processing

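With limma, 4 connexins fell and 0 rose. Over the settings that left out 1 mouse each, 3 or 4 fell and 0 or 1 rose (Gjd2, without mutant 2 or control 9). With mice of equal replicate number as a block, which rests on mutants and controls 1 to 4, 2 fell, Gja5 and Gjb6, and the adjusted p was 0.177 for Gja1 and 0.0631 for Gjb2. With unequal variances 1 fell. After quantile normalization, or with arrays centred on the median or on fibroblast genes, 1 rose, which was Gjd2. With array quality weights 4 fell, Gjb1 in place of Gja1. In the exact permutation test 5 of 8 were under 0.05 unadjusted, and no share over all genes was computed. By limma 4701 of 19938 genes were under 0.05 unadjusted. With the mice of the male pattern alone, or without the 4 arrays of lowest median intensity, 3 were under 0.05 in the exact test. Both settings were chosen for this test after seeing the data, and fewer mice give fewer splits, so 3 cannot be set against 5. For Gja4 the direction turned in 3 of 31 settings and for Gjb1 in 1 of 30, without a call. Gjb1 was among the dimmest 50% of genes and Gjd2 among the dimmest 25%, so they have no value under those filters. Over all genes 1258 fell and 1710 rose. Falls numbered 400 (unequal variances) to 3617 (quantile normalization) and rises 1139 (unequal variances) to 4536 (centred on fibroblast genes), and the median of all genes was -0.09 (array median) to 0.21 (fibroblast genes). The 3 differences between 2 connexins of the same array, chosen after their values were seen, kept their direction with constants of 1 and 32. Leaving out 1 mouse could not turn their direction, since the groups did not overlap in them.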
